A study of Mus musculus with 10 samples.

Results

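The genes described here are Cd14 and 9 other genes through which cells sense bacterial and viral products, measured in bulk RNA from a mouse model of liver cancer (hepatocellular carcinoma). They were chosen by symbol as a list of 10 among the 49585 genes of the deposited count tables, because Cd14 had stood out as abundant in organoids that held little RNA of other myeloid genes. The level of Cd14 beside myeloid genes is therefore a description here and carries no test. All 10 members were found and all 10 passed the filter on low counts.

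The model carries a knockout of the Rb gene family, and the series title calls it a triple knockout, while no sample label gives the genotype, age, sex or treatment time of an animal or culture. Livers or visible lesions were dissociated with enzymes, and cells positive for YFP, which marks Cre recombination of floxed alleles, were collected by flow cytometry. The labels name neither the promoter that drives Cre nor the number of animals or clones behind a culture. The libraries compared are organoids, three-dimensional epithelial cultures, derived from Sox9 cells (2 libraries) and from Ck19 cells (2 libraries), as the labels put it. Sox9 is a transcription factor and Ck19 is a keratin, encoded by Krt19, that marks cells of bile ducts. The other 3 of the 5 labelled groups were not analysed under their labels, as no count column was tied to them by name. No label ties the libraries of a group to separate cultures or animals, so p-values measure only the spread between these libraries, which may be technical.

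Toll-like receptors (TLRs) are membrane proteins that bind conserved parts of microbes and signal to NF-kB and interferon regulatory factors. Lipopolysaccharide, a lipid of Gram-negative bacteria, is drawn out of membranes by the plasma protein Lbp and handed to Cd14, a protein anchored to the cell surface or shed in soluble form. Cd14 passes it to Ly96, which holds the lipid in a complex with Tlr4. Most TLRs recruit the adaptor Myd88, and NF-kB then induces its own inhibitors, among them Nfkbia and Tnfaip3. The liver receives bacterial products from the gut through the portal vein. There, Cd14 is best known as a gene of Kupffer cells and other myeloid cells, and hepatocytes secrete Lbp.

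RefSeq promoters were listed for 6 of the 10 members (Tlr2, Tlr3, Tlr5, Myd88, Nfkbia and Tnfaip3). They were searched on both strands, over the 250 bases before the RefSeq start, for the NF-kB consensus of 10 letters, for a narrower form of it (GGGA and TTCC set apart by any 2 bases), every match of which also matches the consensus, and for the interferon regulatory factor core (GAAA and GAAA set apart by any 2 bases). The promoters below are shown, 5′ to 3′ on the gene's own strand and on build GRCm38.p6, because they belong to both feedback inhibitors, to the receptor Tlr2 and to the shared adaptor, and capitals mark the matches.
Nfkbia promoter (chr12:55492648-55492897, minus strand): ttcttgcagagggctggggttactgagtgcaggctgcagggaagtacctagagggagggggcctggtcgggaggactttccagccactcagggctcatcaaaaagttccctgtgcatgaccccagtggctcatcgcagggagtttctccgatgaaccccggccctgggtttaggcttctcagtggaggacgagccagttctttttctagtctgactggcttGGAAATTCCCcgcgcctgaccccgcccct
Tnfaip3 promoter (chr10:19015411-19015660, minus strand): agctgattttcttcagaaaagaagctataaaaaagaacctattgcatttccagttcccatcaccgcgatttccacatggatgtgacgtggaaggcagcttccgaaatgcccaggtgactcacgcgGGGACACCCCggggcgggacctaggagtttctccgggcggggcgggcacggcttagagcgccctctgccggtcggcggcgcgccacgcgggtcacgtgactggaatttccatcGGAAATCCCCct
Tlr2 promoter (chr3:83841609-83841858, minus strand): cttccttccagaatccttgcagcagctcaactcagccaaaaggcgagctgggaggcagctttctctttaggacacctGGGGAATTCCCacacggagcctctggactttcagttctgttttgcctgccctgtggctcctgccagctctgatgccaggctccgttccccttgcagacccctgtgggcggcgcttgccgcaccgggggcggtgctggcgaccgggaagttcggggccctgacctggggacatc
Myd88 promoter (chr9:119340019-119340268, minus strand): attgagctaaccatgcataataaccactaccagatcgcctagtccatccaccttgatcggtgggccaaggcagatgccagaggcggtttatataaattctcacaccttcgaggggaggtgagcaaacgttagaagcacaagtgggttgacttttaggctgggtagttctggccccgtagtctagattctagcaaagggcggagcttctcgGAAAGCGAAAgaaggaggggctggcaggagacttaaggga
In the Nfkbia promoter GGAAATTCCC, the narrower form read on the other strand, began 29 bases before the start. The Tnfaip3 promoter held GGGACACCCC from base 125 and GGAAATCCCC from base 12 before the start, and a further RefSeq start of Tnfaip3 had no match. In the Tlr2 promoter the matches GGGGAATTCC and GGGAATTCCC overlapped, from bases 173 and 172 before the start. Tlr3 held GGGAGTTTCC from base 211, and the Tlr5 and Myd88 windows held no match to the consensus. Myd88 held GAAAGCGAAA from base 40, the one match to the interferon regulatory factor core among the 6 genes. Of all 32851 RefSeq promoters of this length, 7.25% held the consensus, 1.21% the narrower form and 2.98% the interferon regulatory factor core. These matches describe letters and are not measured binding.

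The organoid libraries held 33154972 to 36606008 assigned fragments in the Sox9-derived and 31883180 to 32747944 in the Ck19-derived group, so 3 fragments stood for 0.082 to 0.0941 CPM, the fragment count scaled to a common library total. They held RNA of biliary epithelium: its 12 markers, Epcam and Krt19 among them, summed to 67512 and 57531 CPM in Sox9-derived and to 40515 and 41808 CPM in Ck19-derived organoids, and 12 hepatocyte markers to 276 and 628 CPM against 262 and 290 CPM. Of these biliary markers edgeR called 2 of 12 between the groups, where it called 0.570% of all genes tested. One was Sox9, at 567 and 562 CPM in Sox9-derived against 97.0 and 78.4 CPM in Ck19-derived organoids (edgeR adjusted p = 0.0386). The other was Spp1, at 22830 and 18279 against 7434 and 7744 CPM (edgeR adjusted p = 0.0467). At an unadjusted p under 0.05 there were 7 of the 12 (16.8% of all genes), and DESeq2 called 4 (9.26%) and limma-voom 2 (0.558%). Markers of T, NK and B cells, of endothelium and of stellate cells and fibroblasts summed to 0.437 to 8.47 CPM per list in Sox9-derived and 2.73 to 33.6 CPM in Ck19-derived libraries. Xist, the RNA of the inactive X chromosome, had 1 fragment in each Sox9-derived library and 1923 and 1869 in the Ck19-derived libraries, while the Y-linked Eif2s3y had 3383 and 2615 against 3 and 3. The organoid groups thus differed in the sex of their cells as well as in origin, and sex, animal and origin cannot be told apart in any difference below. A further table held a pair of libraries, with 53280136 and 59664959 fragments, whose names add a TKO tag to Sox9. They match the Sox9-derived titles by name alone, and their RNA goes against that label. Which of the labelled groups they came from is not known. The hepatocyte markers summed to 70121 and 66999 CPM there, with Alb at 21740 and 13158 CPM. Epcam, an epithelial marker, had 8.99 and 5.61 CPM (2101 to 3833 CPM in the organoids). The 12 biliary markers summed to 11219 and 7915 CPM, and 2 of them had no fragment in each library. Most of that sum was Clu (4509 and 4303 CPM), Krt18 (3353 and 1533 CPM) and Krt8 (2734 and 874 CPM). Sox9 itself had 63.8 and 106 CPM. Whether this RNA came from biliary cells was not tested. In sex-linked RNA the pair lay with the Sox9-derived organoids, with 2 and 1 fragments of Xist and 3770 and 3713 of Eif2s3y. The pair is called the TKO-tagged libraries here, and its values stand beside those of the organoids as a description. A fit that puts them in place of the Sox9-derived libraries is given with the dependence on processing.

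Cd14 (ENSMUSG00000051439, chr18:36725074-36726736 on GRCm38, minus strand) was the most abundant member. It had 1336 and 1126 CPM in the Sox9-derived organoids, against 987 and 1057 CPM in the Ck19-derived organoids. Both Sox9-derived libraries lay above both Ck19-derived libraries, by a margin smaller than the gap between the Sox9-derived replicates. The log2 fold change, Sox9-derived over Ck19-derived, was 0.27 (SE 0.16, 95% interval −0.14 to 0.68) and was not called by edgeR's quasi-likelihood test (adjusted p = 0.470 over all 16653 genes tested). As TPM, which also divides by exon length, Cd14 averaged 1806 ± 264 in Sox9-derived and 1435 ± 15.1 in Ck19-derived organoids (SD, n = 2 each). By TPM it ranked 32 and 59 among all genes in the Sox9-derived libraries and 71 and 72 in the Ck19-derived libraries.

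The organoids carried this Cd14 RNA with very little RNA of other myeloid genes. Of 25 myeloid markers, 21 stayed under 1 CPM in every organoid library. The whole list summed to 21.3 and 28.4 CPM in Sox9-derived and to 88.6 and 52.4 CPM in Ck19-derived organoids. Cd14 alone was 62.9 and 39.6 times that sum in the Sox9-derived libraries and 11.1 and 20.2 times in the Ck19-derived libraries. The markers that passed 1 CPM were Cd68, Csf1r, Aif1 and Coro1a. Cd68, a lysosomal membrane protein and the largest share of the sum in every organoid library but Sox9-derived replicate 1, had 6.86 and 23.6 CPM in Sox9-derived and 78.1 and 43.5 CPM in Ck19-derived organoids. Csf1r, the receptor that macrophages need to survive, had 11.1 and 2.53 CPM in Sox9-derived against 5.83 and 3.21 CPM in Ck19-derived organoids. Defining markers were at or near 0: Cd163 had no fragment in any organoid library, which allows up to 0.082 to 0.0941 CPM in each, Itgam had 1 fragment over the 4 libraries, and Lyz2, the lysozyme of macrophages, had 4 and 7 fragments in Sox9-derived and 5 and 6 in Ck19-derived libraries. Ptprc, which marks all leukocytes, had 2 and 4 fragments against 6 and 1. Of the 25 markers 5 passed the count filter, and edgeR called 0 of them between the groups (2 at an unadjusted p under 0.05, DESeq2 1, limma-voom 0). Over all genes tested the shares were 0.570% called by edgeR, 16.8% at an unadjusted p under 0.05, 9.26% by DESeq2 and 0.558% by limma-voom.

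**Figure D1:**
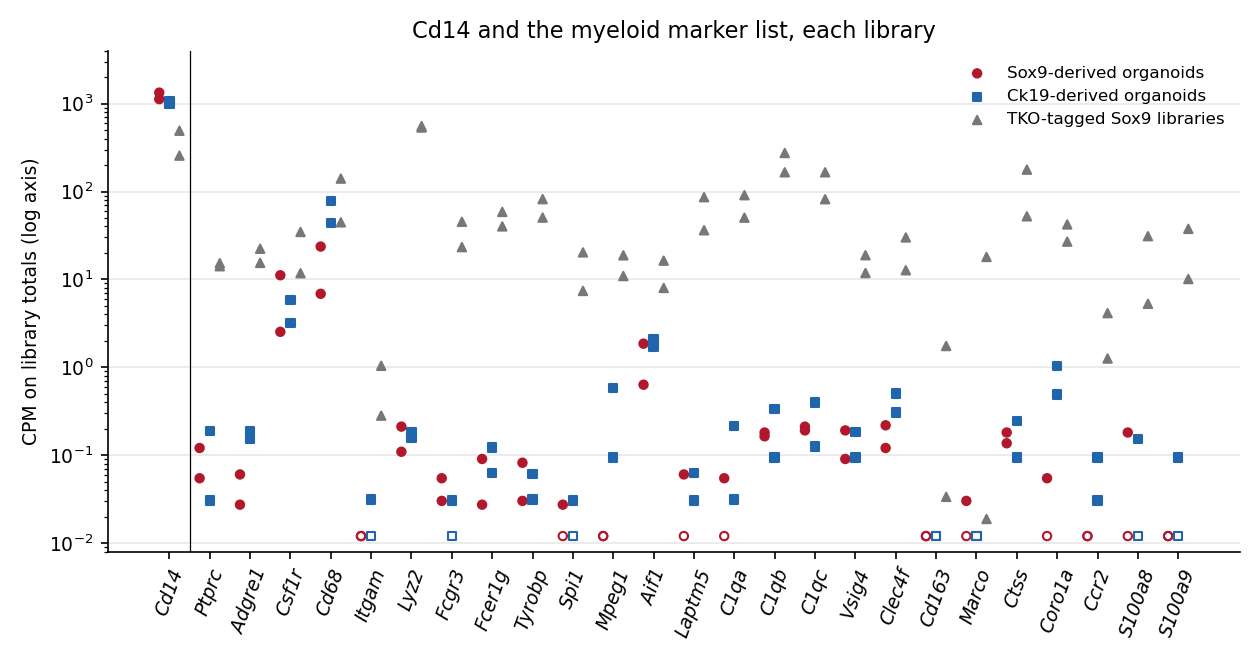
CPM (log axis) of Cd14, left of the line, and of the 25 myeloid markers in each library of the Sox9-derived organoids, the Ck19-derived organoids and the TKO-tagged pair; open symbols at the bottom mark 0 fragments. Cd14 lies between 987 and 1336 CPM in the organoids, where 21 of the 25 markers stay under 1 CPM.

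In the TKO-tagged libraries this relation was the other way round. Cd14 had 492 and 256 CPM there, while the myeloid markers summed to 1863 and 1339 CPM, with Lyz2 at 535 and 554 CPM. Cd14 was 0.264 and 0.191 times the sum of the list. In bulk RNA, fewer cells of a type and less RNA per cell cannot be told apart, so these values do not show which cells of the TKO-tagged libraries held Cd14.

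Lbp and Ly96, the partners of Cd14 in sensing lipopolysaccharide, were less abundant, and they leaned in opposite directions between the organoid groups. Lbp (chr2:158306493-158332852) had 254 and 192 CPM in the Sox9-derived organoids, against 83.1 and 51.6 CPM in the Ck19-derived organoids. Both Sox9-derived libraries lay well above both Ck19-derived libraries. This was the largest difference in size among the members, 3.31-fold (log2 fold change 1.73, SE 0.31, 95% interval 0.93 to 2.52), and edgeR did not call it (adjusted p = 0.103). The call depends on the method: DESeq2 called it on the same counts (adjusted p = 8.42e-06) and so did edgeR without the count filter (adjusted p = 0.0205), while limma-voom did not (adjusted p = 0.0733). With 1 library left out its log2 fold change ran from 1.39 to 2.12. Those fits take their spread from the other group's pair alone, so their calls are not given. Alb, the main hepatocyte product, stood at 9.40 and 1.24 CPM in Sox9-derived against 20.4 and 9.10 CPM in Ck19-derived organoids and overlapped between the groups, as did the sum of the hepatocyte list. The markers of that list did not move together: Ttr, a secreted transport protein and most of the sum in the Sox9-derived libraries, had 162 and 543 CPM against 103 and 149 CPM (log2 fold change 1.496, edgeR adjusted p = 0.314; called by DESeq2), while Apob had 0 and 0.030 CPM against 2.16 and 1.56 CPM. Of the 12 markers 5 were tested, 2 were above 0 and 3 below, and edgeR called 0 (2 at an unadjusted p under 0.05, DESeq2 2, limma-voom 0). The shares over all genes tested were 0.570% for edgeR, 16.8% at an unadjusted p under 0.05, 9.26% for DESeq2 and 0.558% for limma-voom. Whether hepatocyte RNA had a part in the Lbp difference was not tested. The TKO-tagged libraries had 370 and 452 CPM of Lbp.

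Ly96 (chr1:16688051-16709611) leaned the other way. It had 25.02 and 27.7 CPM in Sox9-derived organoids and 34.4 and 32.7 CPM in Ck19-derived organoids, without overlap between the groups. The log2 fold change was −0.35 (SE 0.22, 95% interval −0.91 to 0.21; edgeR adjusted p = 0.494). In the TKO-tagged libraries it had 20.6 and 30.8 CPM, one below and one within the span of the organoids. Per length, Cd14 exceeded its receptor partner Ly96 by 34.7 and 26.4 times in TPM in the Sox9-derived libraries and by 18.6 and 20.98 times in the Ck19-derived libraries.

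Of the 4 receptors, Tlr4 and Tlr3 were the steadily expressed ones and Tlr2 and Tlr5 were low and variable. Tlr4 (chr4:66827584-66930284), the signalling receptor for lipopolysaccharide, had 23.4 and 24.6 CPM in the Sox9-derived organoids, against 13.3 and 14.5 CPM in the Ck19-derived organoids. The replicates of each group lay close together and the groups did not overlap. The log2 fold change was 0.79 (SE 0.25, 95% interval 0.16 to 1.43), with an unadjusted p of 0.0242 and an edgeR adjusted p of 0.220, so it was not called. With other scalings, filters and tools, with a block or with 1 library left out its log2 fold change ran from 0.74 to 0.84 and its adjusted p from 0.082 to 0.569. The interval that excludes 0 here and for Lbp is not adjusted for the number of genes tested.

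Tlr3 (chr8:45395665-45411080), a receptor for double-stranded RNA inside endosomes, had 38.2 and 29.3 CPM in Sox9-derived organoids and 39.6 and 34.1 CPM in Ck19-derived organoids. The groups overlapped, and the log2 fold change was −0.13 (SE 0.24, 95% interval −0.75 to 0.50; edgeR adjusted p = 0.846). A predicted gene on the other strand, Gm45542, shares 7.32% of its exon bases, and the counting ignored strand. Both receptors were scarce in the TKO-tagged libraries. Tlr4 had 0.845 and 0.101 CPM there, and Tlr3 had 0 fragments in replicate 1, which allows up to 0.0563 CPM, and 2.13 CPM in replicate 2.

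Tlr2 (chr3:83836272-83841767), a receptor for bacterial lipoproteins, had 10.6 and 4.01 CPM in Sox9-derived organoids, against 1.88 and 5.56 CPM in Ck19-derived organoids. The replicates within each group lay far apart, and the groups overlapped. The log2 fold change was 0.98 (SE 0.76, 95% interval −0.97 to 2.93; edgeR adjusted p = 0.581), and it ran from 0.14 to 1.92 with 1 library left out. Tlr2 was the one receptor of the 4 with more CPM in both TKO-tagged libraries, 26.2 and 29.1, than in any organoid library. Tlr5 (chr1:182954788-182976044), the receptor for flagellin, had 3.61 and 0.814 CPM in Sox9-derived and 8.72 and 3.42 CPM in Ck19-derived organoids, a log2 fold change of −1.46 (SE 0.90, 95% interval −3.78 to 0.85; edgeR adjusted p = 0.486). The groups overlapped, as Sox9-derived replicate 1 lay just above Ck19-derived replicate 2. The log2 fold change was −2.88 without the first of these libraries and −2.01 without the second. Over the libraries left out in turn it ran from −2.88 to −0.62. The TKO-tagged libraries had 69 fragments and 1 fragment of Tlr5.

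**Figure D2:**
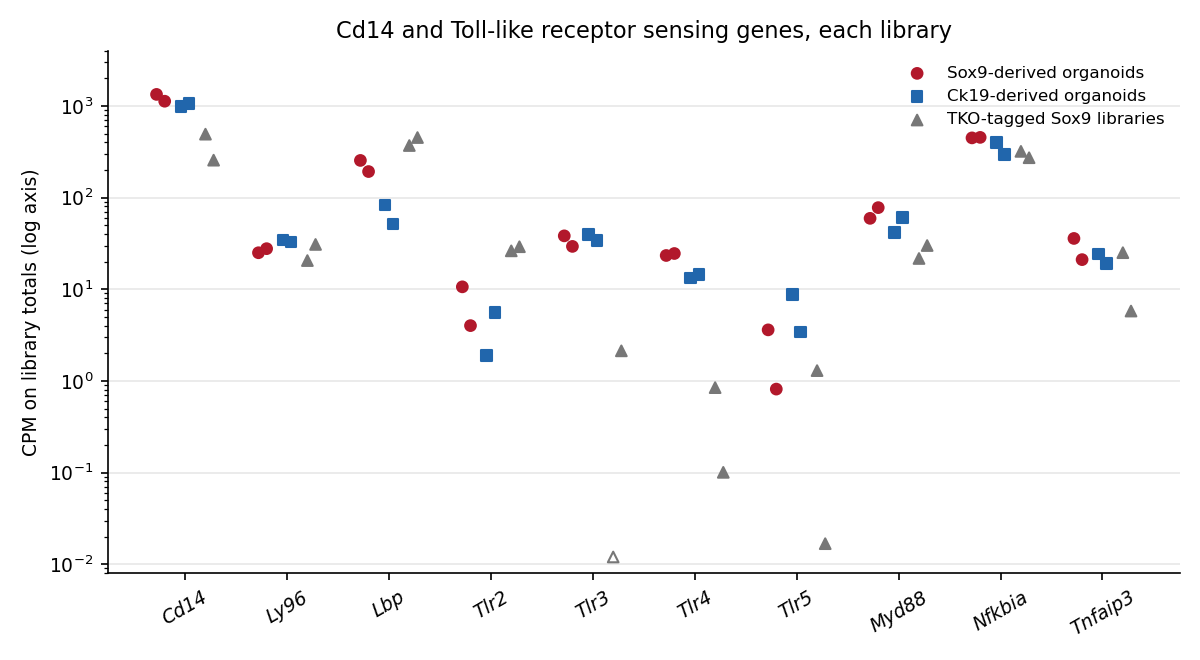
CPM (log axis) of the 10 members in each library, with the Sox9-derived organoids left of the Ck19-derived organoids and the TKO-tagged libraries at the right of each gene; the open symbol marks 0 fragments. Cd14, Ly96, Lbp, Tlr4 and Nfkbia do not overlap between the organoid groups, as holds for 51.0% of all genes tested. Tlr2 and Tlr5 spread widely within the groups, and Tlr3 and Tlr4 are lowest in the TKO-tagged pair.

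Myd88 (chr9:119335934-119341411), the adaptor of most TLRs and of the interleukin 1 receptors, had 59.4 and 77.7 CPM in Sox9-derived organoids and 41.4 and 60.8 CPM in Ck19-derived organoids. The higher Ck19-derived library lay just above the lower Sox9-derived one, and the log2 fold change was 0.43 (SE 0.27, 95% interval −0.28 to 1.14; edgeR adjusted p = 0.501). Acaa1a, a gene on the other strand, shares 11.3% of its exon bases. The TKO-tagged libraries held 21.7 and 29.98 CPM, below every organoid library.

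Nfkbia (chr12:55489411-55492647) encodes the inhibitor that holds NF-kB in the cytoplasm and was the second most abundant member. It had 448 and 454 CPM in Sox9-derived organoids, against 402 and 297 CPM in Ck19-derived organoids. The Sox9-derived libraries were nearly equal and both lay above the Ck19-derived pair, whose replicates were farther apart. The log2 fold change was 0.37 (SE 0.21, 95% interval −0.17 to 0.91; edgeR adjusted p = 0.453). Tnfaip3 (chr10:19000910-19015657), a ubiquitin-editing enzyme that ends NF-kB signalling, had 35.8 and 21.1 CPM in Sox9-derived and 24.3 and 19.1 CPM in Ck19-derived organoids. The groups overlapped, and the log2 fold change was 0.39 (SE 0.34, 95% interval −0.50 to 1.28; edgeR adjusted p = 0.632). Without Sox9-derived replicate 1 it was −0.025. The TKO-tagged libraries had 319 and 272 CPM of Nfkbia and 25.1 and 5.78 CPM of Tnfaip3.

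Compared per length, the members fell into steps that were much alike in both organoid groups. In the Sox9-derived organoids Cd14 was followed by Nfkbia at 659 ± 10.9 TPM, Lbp at 107 ± 23.6, Myd88 at 61.2 ± 10.03, Ly96 at 59.4 ± 2.78, Tlr3 at 14.99 ± 3.16, Tlr4 at 9.93 ± 0.0973, Tnfaip3 at 9.11 ± 3.56, Tlr2 at 5.64 ± 3.72 and Tlr5 at 1.07 ± 0.976 TPM (SD, n = 2). Of the neighbours in this order, Myd88 and Ly96, Tlr4 and Tnfaip3, Tnfaip3 and Tlr2, and Tlr2 and Tlr5 did not differ beyond their spread, taken as 1 SD about each mean. In the Ck19-derived organoids Nfkbia had 492 ± 123 TPM, Ly96 72.7 ± 5.40, Myd88 43.6 ± 10.1, Lbp 31.01 ± 11.4, Tlr3 15.7 ± 2.23, Tnfaip3 6.66 ± 1.38, Tlr4 5.51 ± 0.131, Tlr5 2.83 ± 1.83 and Tlr2 2.69 ± 1.80 TPM (SD, n = 2). Here Myd88 and Lbp, Tnfaip3 and Tlr4, and Tlr5 and Tlr2 were the neighbours that did not differ beyond their spread. Lbp was above Ly96 in both Sox9-derived libraries and below it in both Ck19-derived libraries.

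Between the organoid groups edgeR called 0 of the 10 members at an adjusted p under 0.05, where it called 0.570% of all genes tested (0.186% higher and 0.384% lower). At an unadjusted p under 0.05 there were 2 (Lbp and Tlr4), where 16.8% of all genes reached it. DESeq2 called 1 (Lbp), near its share of 9.26% over all genes, and limma-voom called 0, where its share was 0.558%. The groups did not overlap in 5 members (Cd14, Lbp, Tlr4 and Nfkbia higher, Ly96 lower), a share near the 51.0% of all genes tested (24.6% higher and 26.3% lower). The log2 fold change was above 0 in 7 and below 0 in 3, with a median of 0.38 beside 0.0060 over all genes tested.

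**Figure D3:**
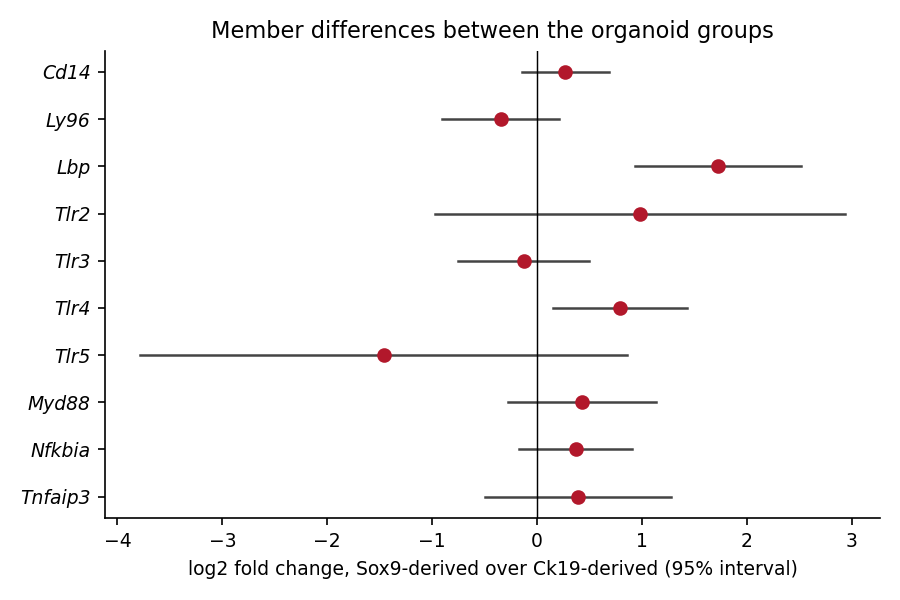
Log2 fold change of each member, Sox9-derived over Ck19-derived organoids (x axis), with the 95% interval of the edgeR fit, not adjusted for the number of genes. The intervals of Lbp (0.93 to 2.52) and Tlr4 (0.16 to 1.43) lie above 0, and the widest are those of Tlr5 and Tlr2.

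Genes whose levels followed the 4 organoid libraries most like Cd14 were sought by the root mean square distance between centred log2(CPM + 1) values. Among 9497 genes averaging 10 CPM or more, the nearest were Ssrp1 (0.011), Irak1 (0.012), Arhgef1 (0.013), Brd2 (0.017) and Arpp19 (0.019). Irak1, a kinase that Myd88 recruits, had 119 and 102 CPM in Sox9-derived and 88.6 and 94.1 CPM in Ck19-derived organoids. Over 4 libraries many genes came close, and 467 (4.92%) lay within 0.1.

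Around the members, 31 of 42 further TLR pathway genes had enough counts to be tested, and the other TLRs were low or at 0. Over all genes, the shares to set beside the counts of the lists below are 16.8% at an unadjusted p under 0.05, 0.570% called by edgeR, 9.26% by DESeq2 and 0.558% by limma-voom. Of the 31 tested, edgeR called 0 in either direction (4 at an unadjusted p under 0.05, DESeq2 3, limma-voom 0; median log2 fold change 0.17). The most abundant per length were the chaperone Hsp90b1, the NF-kB subunit Rela, the TLR chaperone Cnpy3 and Irf7, and the log2 fold changes of Hsp90b1 and Cnpy3 were 0.21 and 0.08 (edgeR adjusted p = 0.681 and 0.851). Rela had 230 and 191 CPM in Sox9-derived against 175 and 137 CPM in Ck19-derived organoids. Irf7, an interferon-induced transcription factor, had 12.5 and 28.5 CPM in Sox9-derived against 359 and 226 CPM in Ck19-derived organoids (a log2 fold change of −3.83 with an SE of 0.52; edgeR adjusted p = 0.0706). Tlr9 had no fragment in any organoid library, and Tlr7, Tlr8, Tlr11, Tlr12 and Tlr13 each averaged at most 0.063 CPM in either group. Tlr1 and Tlr6, which pair with Tlr2, had 0.792 and 0.52 CPM in Sox9-derived replicate 1 and 0 fragments in replicate 2, while in the Ck19-derived organoids Tlr1 had 2.70 and 2.66 CPM and Tlr6 1.51 and 2.08 CPM.

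Of 20 further inhibitors of NF-kB and TLR signalling, 18 were tested and edgeR called 0 (3 at an unadjusted p under 0.05, DESeq2 2, limma-voom 0; median 0.13). Sigirr, a receptor that dampens TLR and interleukin 1 signalling, had 185 and 111 CPM in Sox9-derived against 290 and 282 CPM in Ck19-derived organoids (a log2 fold change of −0.95 with an SE of 0.28; edgeR adjusted p = 0.197). The stress phosphatase Dusp1 had 150 and 77.3 CPM against 447 and 217 CPM (log2 fold change −1.55, edgeR adjusted p = 0.221). The other abundant inhibitors were Otulin, at 80.7 and 94.9 CPM in Sox9-derived against 66.0 and 85.7 CPM in Ck19-derived organoids, and Tax1bp1, at 239 and 307 against 239.6 and 242 CPM, with log2 fold changes of 0.22 and 0.18 (edgeR adjusted p = 0.667 and 0.693). Of 28 NF-kB target genes 23 were tested and edgeR called 0 (8 at an unadjusted p under 0.05, where 16.8% of all genes reached it, DESeq2 5, limma-voom 0; median 0.25). The most abundant was Lcn2, a protein that binds bacterial iron carriers, at 1954 and 1409 CPM in Sox9-derived against 920.2 and 573 CPM in Ck19-derived organoids (log2 fold change 1.17, SE 0.30, edgeR adjusted p = 0.166). Bcl2l1, which protects cells from apoptosis, had 257 and 264 CPM against 239 and 198 CPM (log2 fold change 0.25, edgeR adjusted p = 0.547). Cxcl5 and Ccl2, the other abundant targets, had log2 fold changes of 0.46 and 6.78 (edgeR adjusted p = 0.771 and 0.210), the second of them against a Ck19-derived library with no fragment. Il6 had no fragment in any organoid library. Of 9 genes of the interleukin 1 receptor family and its ligands, 7 were tested and edgeR called 0 (3 at an unadjusted p under 0.05, DESeq2 3, limma-voom 0; median 0.58). Il1r1, which signals through Myd88, had 67.04 and 59.0 CPM in Sox9-derived against 16.6 and 13.5 CPM in Ck19-derived organoids (log2 fold change 2.07, SE 0.23, edgeR adjusted p = 0.0517). Il1rn, which blocks that receptor, had 360 and 276 CPM against 238 and 188 CPM (log2 fold change 0.58, edgeR adjusted p = 0.299). The cytokines Il18 and Il33 lay the other way, Il18 at 1.80 and 3.08 CPM in Sox9-derived against 6.21 and 11.6 CPM in Ck19-derived organoids and Il33 at 8.47 and 1.87 against 16.2 and 21.0 CPM (log2 fold changes −1.86 and −1.85, edgeR adjusted p = 0.205 and 0.312).

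**Figure D4:**
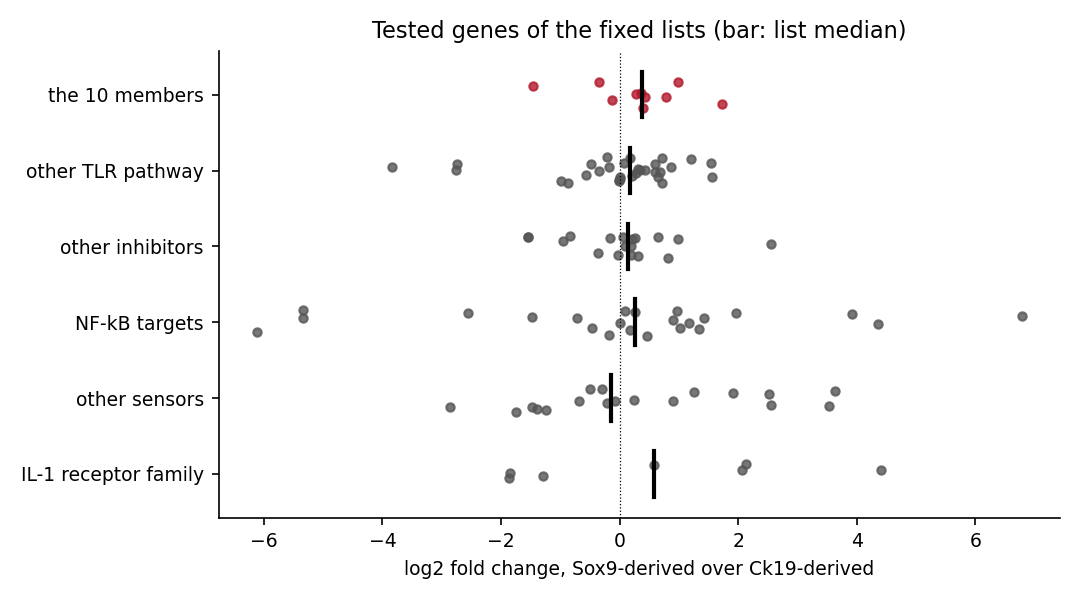
Log2 fold change, Sox9-derived over Ck19-derived organoids (x axis), of the tested genes of each list; each point is a gene and the bar is the list's median. The members have a median of 0.38, and the NF-kB targets spread most widely around theirs of 0.25.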

How the data were processed

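The authors deposited raw fragment counts per gene. Per the file headers, featureCounts 1.5.0-p3 counted primary alignments of fragments mapped at both ends, from mapping quality 10 upward and ignoring strand, over Ensembl 87 genes on GRCm38. STAR 2.5.4b is among the tools in the submitters' processing notes, which give no role. No fragment was flagged as a duplicate, so PCR copies were counted, and floors of 3 fragments cover counting error only. Column names alone gave each column its sample, and 4 count columns whose names match no sample label were not used. Symbols came from a reference table that named 49326 of 49585 gene IDs.

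From the counts, CPM on library totals and TPM from the deposited exon lengths were computed. The test was edgeR 4.0.16 (R 4.3.3): filterByExpr (minimum count 10), TMM scaling, quasi-likelihood F-test, Benjamini-Hochberg adjustment over 16653 genes, two-sided, threshold 0.05. The common biological coefficient of variation was 0.434 on 2 residual degrees of freedom, and the standard error is the log2 fold change over the square root of F. The test was tried on simulated counts. Alternatives were DESeq2 1.42.0, limma-voom (limma 3.58.1), relative log expression scaling, no filter, leaving out each library, a replicate block and the TKO-tagged columns. No replicate pair matched within sampling noise, as repeat deposits of the same library would (chi-square per gene 118 and 62.8 in the organoid pairs).

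The members and gene lists were chosen with earlier results of these data known. Named from each pathway list were the 4 genes with the highest mean TPM and genes without a fragment, and from the marker lists called genes and defining markers; other names were chosen after their values were seen. Of 24 further sensors 23 symbols were matched.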

Additional observations from a re-analysis of the deposited data

How the results depend on the processing

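The number of genes called between the organoid groups (95) depended strongly on the method: DESeq2 called 1512, edgeR without the count filter 506, and with a replicate block 0 (2665 at an unadjusted p under 0.05). Leaving out 1 library gave 0 to 1394 calls: 1394 and 975 without Sox9-derived replicate 1 or 2, and 0 without Ck19-derived replicate 1 or 2 (1692 and 1611 at an unadjusted p under 0.05). Same-numbered libraries deviated together with a correlation of 0.058 across genes, so the numbers were not taken as pairs, and the replicate block changed no member's call. Lbp was called at a log2 fold change of 1.72 by DESeq2 and 1.74 without the filter, and ranged from 1.39 to 2.12 with 1 library left out. Leave-one-out values changed sign for Tnfaip3 (−0.025 to 0.72, reversed without Sox9-derived replicate 1) and Tlr3 (−0.31 to 0.049, reversed without Sox9-derived replicate 2). No other member changed its direction or its side of the threshold under the alternatives on the organoid libraries. Mean CPM rests on 2 libraries a group: without 1 of them the Sox9-derived mean of Tlr5 is 0.814 or 3.61 CPM and that of Tlr2 4.01 or 10.6 CPM.

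With the TKO-tagged columns in place of the Sox9 columns, whose RNA goes against that label, 5190 genes were called against Ck19-derived organoids. The log2 fold changes over Ck19-derived organoids then were −0.68 for Cd14, 0.36 for Ly96, −0.23 for Myd88 and −4.09 for Tlr4, each opposite in sign to the organoid comparison, and 3.36 for Lbp and 3.66 for Tlr2. Only those of Lbp (adjusted p = 0.00504), Tlr2 (adjusted p = 0.0150) and Tlr4 (adjusted p = 0.0492) were called by edgeR. TMM scaling raised all of these by 0.76 over library totals, and on library totals Ly96, Nfkbia and Tnfaip3 averaged lower in the TKO-tagged libraries. The cause was not tested. Counting error was largest for the members with the fewest fragments per organoid library, Tlr5 (27 to 278) and Tlr2 (60 to 389).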

Other observations

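Sensors outside the TLR family showed levels of their own. Of 23 further microbial and damage sensors 18 were tested and edgeR called 0 (7 at an unadjusted p under 0.05, where 16.8% of all genes reached it, DESeq2 6, where it called 9.26% of all genes, limma-voom 0; median log2 fold change −0.15). The most abundant per length was Pglyrp1, a secreted protein that binds bacterial peptidoglycan, at 278 and 441 CPM in Sox9-derived against 890 and 1008 CPM in Ck19-derived organoids (a log2 fold change of −1.39 with an SE of 0.27; edgeR adjusted p = 0.115). The TKO-tagged libraries had 0.469 and 1.32 CPM of it. Of the other abundant sensors, Hmgb1, a nuclear protein released from damaged cells, had 145 and 286 CPM in Sox9-derived against 73.9 and 108 CPM in Ck19-derived organoids (log2 fold change 1.25, edgeR adjusted p = 0.222). Tmem173, which signals for DNA in the cytoplasm, and Mavs, the adaptor of the RNA sensors, had log2 fold changes of −0.22 and −0.08 (edgeR adjusted p = 0.721 and 0.883). Clec7a had no fragment in any organoid library. Nod1 and Nod2, which sense peptidoglycan fragments inside the cell and were chosen after their values were seen, leaned the other way. Nod1 had 8.58 and 23.2 CPM in Sox9-derived against 0.847 and 1.71 CPM in Ck19-derived organoids, and Nod2 had 3.39 and 1.75 against 0.282 and 0.153 CPM (edgeR adjusted p = 0.115 and 0.134).

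Several NF-kB pathway genes lay far apart between the replicates of the Sox9-derived organoids. Cxcl5, a chemokine that attracts neutrophils, had 1383 and 345 CPM in Sox9-derived and 642 and 606 CPM in Ck19-derived organoids. Cxcl1, chosen after its values were seen, had 139.8 and 0.271 CPM in Sox9-derived against 72.1 and 66.9 CPM in Ck19-derived organoids. Ccl2, which attracts monocytes, had 391 and 36.2 CPM in Sox9-derived against 3.86 CPM and 0 fragments in Ck19-derived organoids. The inhibitor gene Nfkbie, also chosen after its values were seen, had 48.8 and 2.65 CPM in Sox9-derived against 5.55 and 3.15 CPM in Ck19-derived organoids. The higher library was replicate 1 in these, and replicate 2 in others: Tnf, likewise chosen after its values were seen, had 0.82 and 9.26 CPM in Sox9-derived against 2.82 and 6.17 CPM in Ck19-derived organoids, and Irak3 2.68 and 18.8 against 5.46 and 1.83 CPM. Whether such a spread was particular to these genes was not tested. Over all genes the Sox9-derived pair had a chi-square per gene of 118, beside 62.8 in the Ck19-derived pair. That value grows with the fragment count and does not measure fold gaps. Some NF-kB targets lay apart in the Ck19-derived replicates too, among them Ltb at 33.7 and 82.6 CPM and Csf2 at 11.1 and 3.45 CPM, also chosen by their values.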
